A study of Mus musculus with 5 samples.

Results

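The genes described here encode AMPA, NMDA and kainate receptor subunits, the ion channels that glutamate opens. They were chosen by symbol as 10 of the 55573 genes in a table of RNA-seq read counts: Gria1, Gria2, Gria3 and Gria4 (AMPA receptors), Grin1, Grin2a, Grin2b, Grin2d and Grin3a (NMDA receptors) and Grik5 (a kainate receptor). The RNA came from Neuro-2A (N2A) cells, which are neuroblast-like cells of a mouse tumour grown as a line, after transfection of 60 pmol of siRNA. Cells of the siUpf1 group (3 libraries, replicates 1, 2 and 3) received siRNA against Upf1 and cells of the siCtl group (2 libraries, replicates 1 and 3) received a control siRNA. The question put to these libraries was which transcripts change in level when UPF1, an RNA helicase needed for nonsense-mediated mRNA decay (NMD), is depleted. Both groups are 1 tumour-derived line in culture, the labels give no genetic change beyond the siRNA, and each library is a bulk extract in which more cells expressing a gene cannot be told apart from more of its RNA per cell.

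Glutamate carries most fast excitatory signals in the brain. AMPA receptors are tetramers of GRIA subunits and pass the fast current, and the GRIA2 subunit, once its mRNA has been edited, keeps calcium out of the channel. NMDA receptors need GRIN1, which binds the co-agonist glycine or D-serine, together with GRIN2 subunits, which bind glutamate, or GRIN3 subunits. GRIK5 is a kainate receptor subunit that forms a working channel only with GRIK1, GRIK2 or GRIK3. NMD is a quality-control pathway that degrades mRNAs on which translation ends in an unusual context, for example upstream of an exon junction, and it also lowers the level of many intact mRNAs.

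Gria2 and Grin1 were also among the transcripts that the study measured by RT-qPCR, in other material than these N2A libraries. It reported Gria2 in cultured cortical neurons and Grin1 in cortex, each from wild-type and Fmr1-knockout mice. Their primers are shown because they mark which part of each mRNA, and which isoforms, that assay reads, whereas the RNA-seq counts described below sum all isoforms of a gene. The sequences are written 5′ to 3′ in lower case, and none of them crosses an exon junction.
Gria2 forward: ttctcctgttttatggggactga
Gria2 reverse: ctacccgaaatgcactgtattct
Grin1 forward: agagcccgaccctaaaaagaa
Grin1 reverse: ccctcctccctctcaatagc
On GRCm38 the Gria2 primers lie at chr3:80802330-80802352 in coding exon 1 and chr3:80801735-80801757 in coding exon 2 of the 16 exons of its longest coding transcript. They delimit 107 nt of that transcript. Both primer sequences occur in 8 of 8 annotated Gria2 transcripts, including the 1 transcript annotated as an NMD substrate. The stretch between them was not compared across transcripts. The Grin1 primers lie at the other end of their mRNA, at chr2:25294508-25294528 in exon 20 and chr2:25292405-25292424 in exon 21 of the 21 exons of the longest coding transcript that holds both. Their product is 171 nt in that transcript and requires both primer sites, which occur together in 2 of 8 protein-coding Grin1 transcripts. Gria2 is on chromosome 3 (80681450 to 80802835) and Grin1 on chromosome 2 (25291181 to 25319187), both on the minus strand.

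Libraries held 20402205 to 27717594 assigned reads, and 21757 to 23215 genes had a read in each. Upf1 was lower in each siUpf1 library, at 2403, 2496 and 2449 normalised read counts (counts divided by DESeq2's size factor of the library), than in the siCtl libraries at 5217 and 5243. The mean in siUpf1 cells was 46.8% of that in siCtl cells (log2 fold change −1.10, SE 0.051, DESeq2 adjusted p = 7.09e-101). Of 12 neuroblastoma and neuronal markers, 10 were tested. DESeq2 called 6 higher (Map2 by 0.77 on the log2 scale) and 3 lower (Uchl1 by −0.41), beside 22.0% and 22.9% of all genes tested. Normalised counts of the 12 markers summed to 63927 and 64114 in siCtl cells and 62720 to 67727 in siUpf1 cells. Among them Nefm had at most 3 reads in a library. Markers of other cell types summed to far fewer normalised counts, but not all of them were low. Mbp averaged 392 in siCtl and 459 in siUpf1 cells. In siCtl cells this was above the means of Gria2, Grin1 and Grin2d given below. The 5 astrocyte markers, mainly Aldh1l1 and Gfap, summed to 34.0 and 55.6 normalised counts in siCtl cells and 25.0 to 32.6 in siUpf1 cells. Gja1 was at 0 in all libraries. The 5 microglia markers, mainly Tmem119, summed to 51.9 and 59.7 in siCtl cells against 65.3 to 95.2 in siUpf1 cells. Cx3cr1 and P2ry12 were at 0. The 5 oligodendrocyte markers, mainly Mbp, summed to 462 and 502 in siCtl cells against 518 to 548 in siUpf1 cells, with Mog and Mag at 0. The 5 fibroblast markers, mainly Pdgfra, summed to 288 and 306 against 223 to 258, with Lum at 0. The part of these shifts in the results below was not tested.

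N2A cells expressed 4 of the 10 receptor genes. Gria2, Grin1, Grin2d and Grik5 had 143 to 3245 reads in every library, whereas Gria1 had 2 reads in the 5 libraries together, Gria3 and Grin3a had 1 each, and Gria4, Grin2a and Grin2b had none. DESeq2 tested the 4 expressed genes and called 2 of them, both higher in siUpf1 cells (adjusted p under 0.05). Over all 15191 genes tested, 44.9% were called, 22.0% higher and 22.9% lower, so a count of 2 among 4 is not a result about these genes as a group. No receptor gene was called lower, by DESeq2, by DESeq2 at an unadjusted p under 0.05 (0 genes) or by edgeR (0 genes).

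**Figure D1:**
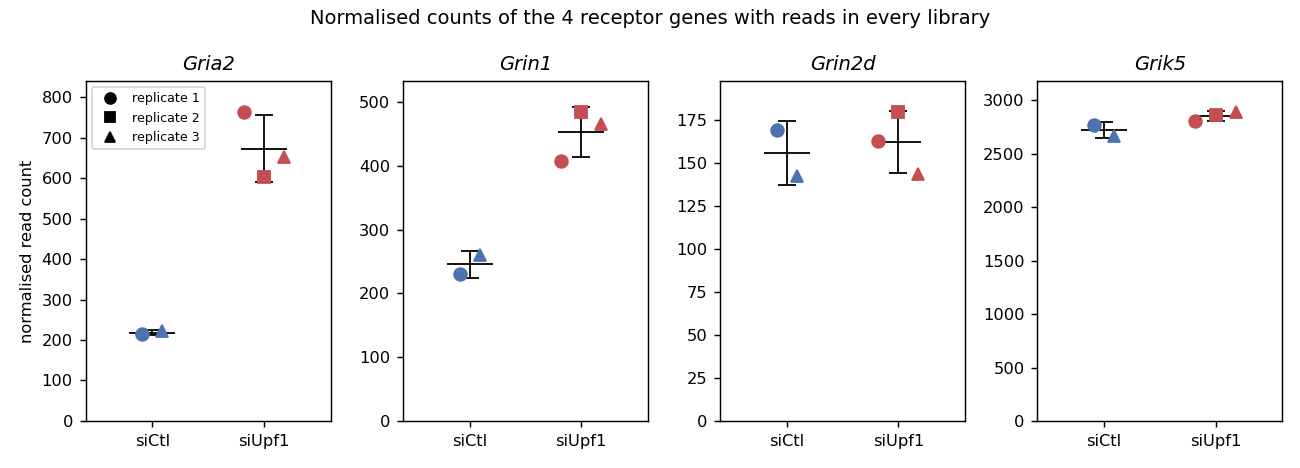
Normalised read counts (vertical axes, each from 0) of Gria2, Grin1, Grin2d and Grik5, 1 panel per gene, with a point for each library of siCtl (n = 2) and siUpf1 (n = 3) cells and a dash with whiskers for the mean ± SD. The siUpf1 points lie above the siCtl points for Gria2, Grin1 and, by a small margin, Grik5, and the groups overlap for Grin2d.

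Gria2, which encodes the calcium-blocking AMPA subunit, had the largest change of the receptor genes. Its normalised counts were 213.8 and 222.7 in siCtl replicates 1 and 3, and 764, 602 and 653 in siUpf1 replicates 1, 2 and 3. Each siUpf1 library was thus well above both siCtl libraries, and the spread among siUpf1 libraries was small beside the gap between groups. The mean rose from 218 ± 6.23 (SD, n = 2) to 673 ± 82.6 (SD, n = 3), or to 309% of the siCtl level, a log2 difference of 1.63 (SE 0.132, 95% interval 1.37 to 1.89, DESeq2 adjusted p = 2.34e-33). By fold change Gria2 ranked 122 among the 15191 genes tested, with 0.803% of them at or above its value. The reads came from a gene of middling abundance, since 52.8% of tested genes had a mean count at or above that of Gria2. The study had singled out Gria2 and Grin1 with these libraries in hand, so their direction here is not independent of that choice.

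The other 3 AMPA genes gave no usable level. Gria1, which encodes a subunit that adds receptors to synapses during potentiation, had 1 read in siUpf1 replicates 1 and 2 and none elsewhere. Gria3 had 1 read in siUpf1 replicate 3, and Gria4, which encodes an early and fast-gating subunit, had no read. A count of 0 allows up to 3 reads in a library, or at most 0.0243 RPKM (reads per kb of merged exon, scaled to the assigned reads of the library) for Gria1, 0.0149 for Gria3 and 0.0233 for Gria4, beside 0.556 ± 0.0204 (SD, n = 2) for Gria2 in siCtl cells. These limits are for libraries with no read and cover counting error only. They do not bound the libraries with 1 read of Gria1 or Gria3. Gria2 accordingly supplied 100% of the length-scaled AMPA reads in both siCtl libraries and 99.7%, 99.5% and 99.8% in siUpf1 replicates 1, 2 and 3. The difference of −0.349 percentage points rests on the 3 stray reads of Gria1 and Gria3 (two-sided exact permutation p = 0.1 over 10 splits, the smallest that 2 against 3 libraries allow).

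Grin1, the obligatory NMDA subunit, changed in the same direction and by less. Its normalised counts were 230.6 and 260.4 in siCtl replicates 1 and 3, and 408, 484 and 466 in siUpf1 replicates 1, 2 and 3. The groups did not overlap, and the gap between them exceeded the range within either one. The mean rose from 245 ± 21.1 (SD, n = 2) to 453 ± 39.8 (SD, n = 3), or to 185% of the siCtl level (log2 fold change 0.88, SE 0.136, 95% interval 0.61 to 1.15, DESeq2 adjusted p = 8.59e-10). Grin1 ranked 830 by fold change, with 5.46% of tested genes at or above it. On the opposite strand its locus holds Grin1os, and the counting used strand.

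Of the glutamate-binding NMDA partners only Grin2d was detected above a few reads. GRIN2D is the slowly deactivating GRIN2 subunit, which the embryonic brain also uses. Normalised counts were 168.8 and 142.5 in siCtl cells and 162.8, 179.5 and 143.5 in siUpf1 cells, so the libraries of the groups were interleaved. The means were 155.6 ± 18.6 (SD, n = 2) and 161.9 ± 18.0 (SD, n = 3), and the log2 fold change was 0.05 (SE 0.194, adjusted p = 0.855 by DESeq2). The 95% interval of −0.33 to 0.43 lies below the Grin1 and Gria2 estimates but does not show that Grin2d was level. Grin2a, a subunit of mature synapses, and Grin2b, its main forebrain counterpart early in life, had no read in any library, which allows at most 0.0082 and 0.00592 RPKM. Grin3a, which encodes a glycine-binding subunit that lowers calcium flow, had 1 read, in siCtl replicate 3. Its libraries with no read allow at most 0.0120 RPKM.

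Grik5 had the most reads of the 10 genes. Its normalised counts were 2773 and 2668 in siCtl cells and 2805, 2860 and 2893 in siUpf1 cells, so that each siUpf1 library was above both siCtl libraries. The gap was small, from 2720 ± 73.9 (SD, n = 2) to 2853 ± 44.3 (SD, n = 3), and DESeq2 did not call it (log2 fold change 0.07, SE 0.055, 95% interval −0.04 to 0.18, adjusted p = 0.33). With Grik5, 3 of the 4 tested receptor genes had siUpf1 libraries wholly above the siCtl ones, as had 34.3% of all tested genes, and 0 had them wholly below, as had 35.2%.

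**Figure D2:**
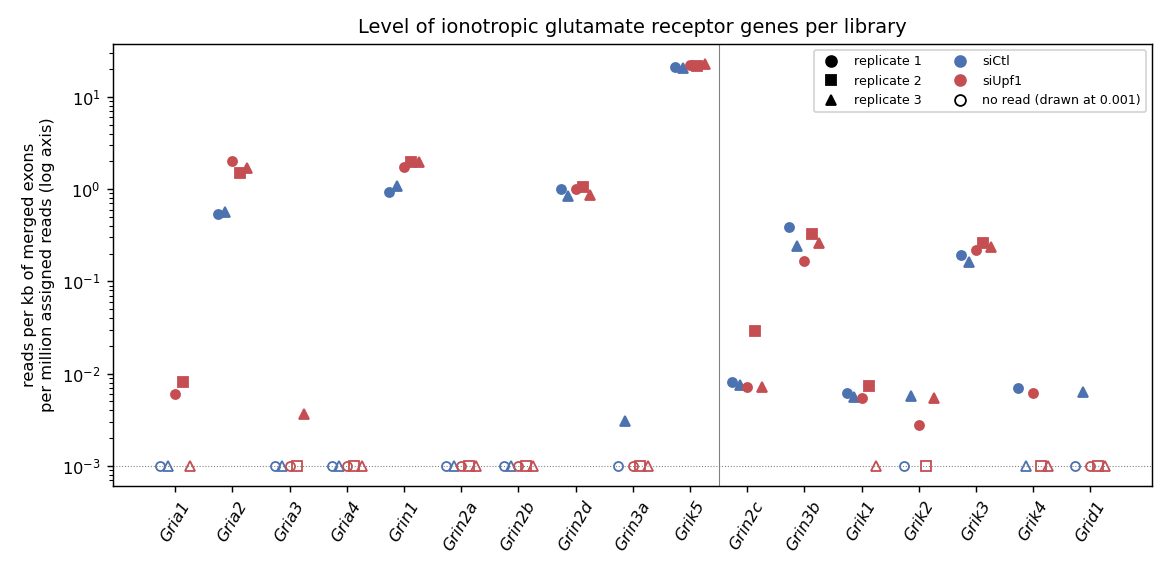
Level in each library, in RPKM over merged exons on a log axis, of the 10 receptor genes (left of the line) and 7 other ionotropic glutamate receptor genes (right of it), with siCtl (n = 2) and siUpf1 (n = 3) libraries in separate colours and open points at 0.001 for libraries with no read. Grik5 lies between 20.6 and 22.7, Gria2, Grin1 and Grin2d between 0.542 and 2.02, and the 6 other genes on the left at or below 1 read in a library.

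Because longer mRNAs collect more reads, levels were compared between genes in RPKM over the merged exons. On this scale Grik5 stood far above the rest, at 20.9 ± 0.398 (SD, n = 2) in siCtl cells and 22.2 ± 0.53 (SD, n = 3) in siUpf1 cells. In siCtl cells Grin1 (0.937 and 1.07) and Grin2d (0.999 and 0.853) could not be ordered, and Gria2 (0.542 and 0.571) was below both. In siUpf1 cells the order among the lower 3 was different. Gria2 (2.02, 1.51 and 1.70) fell on both sides of Grin1 (1.73, 1.95 and 1.95), so these could not be ordered, and both were above Grin2d (1.01, 1.05 and 0.872). Part of this order depends on which length is used. Per kb of the longest protein-coding transcript, Grin1 averaged 2.28 in siCtl and 4.25 in siUpf1 cells and exceeded Gria2 (0.834 and 2.62) and Grin2d (1.13 and 1.20) without overlap in either group.

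Ratios within a library do not depend on scaling between libraries. The log2 ratio of length-scaled Grin1 to the summed Grin2a, Grin2b and Grin2d, which here is Grin1 to Grin2d alone, was −0.09 and 0.33 in siCtl cells and 0.78, 0.89 and 1.16 in siUpf1 cells. The means of 0.12 ± 0.297 (SD, n = 2) and 0.94 ± 0.192 (SD, n = 3) differed by 0.83 on the log2 scale with no overlap (two-sided exact permutation p = 0.1, the smallest possible). The log2 ratio of Gria2 to Grin1, a comparison chosen after the values were seen and given without a test, was −0.79 and −0.91 in siCtl cells and 0.22, −0.37 and −0.19 in siUpf1 cells. Measured against Grik5, the mean log2 ratio was higher in siUpf1 cells by 1.55 for Gria2 and by 0.81 for Grin1, again without overlap. These comparisons too were not planned and are given without a test. Grik5 itself changed little (log2 fold change 0.07), so they largely repeat the fold changes of Gria2 and Grin1.

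**Figure D3:**
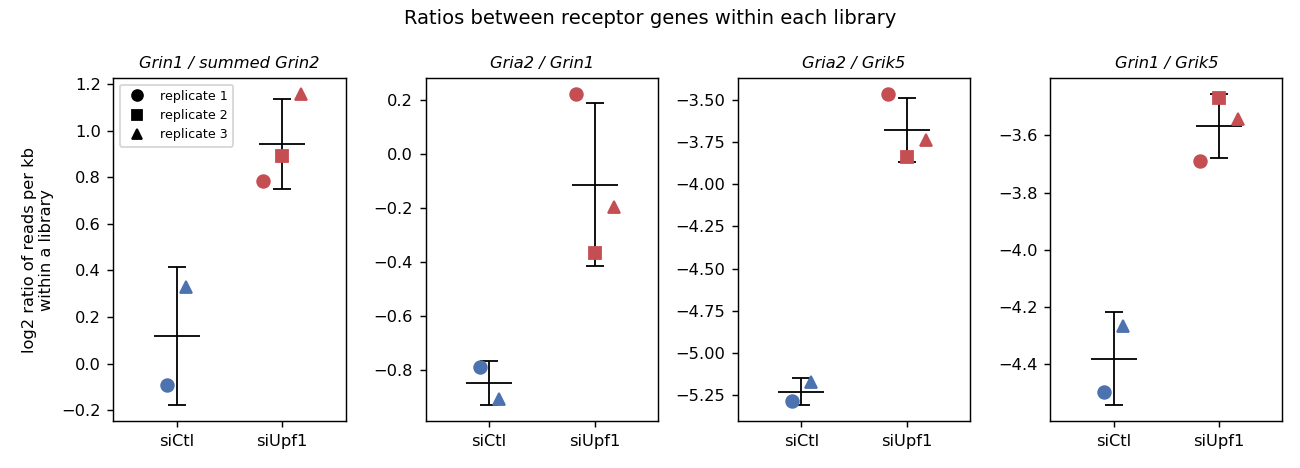
Log2 ratios of length-scaled reads within each library (vertical axes, which do not start at 0) for Grin1 to Grin2 subunits, Gria2 to Grin1, Gria2 to Grik5 and Grin1 to Grik5, with a point per library and a dash with whiskers for the mean ± SD (siCtl n = 2, siUpf1 n = 3). In each of the 4 ratios the siUpf1 points lie above the siCtl points, by 0.83, 0.74, 1.55 and 0.81 between the means.

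Summed over the 18 ionotropic glutamate receptor genes of the mouse considered here, Grik5 supplied 87.4 ± 0.20% (SD, n = 2) of length-scaled reads in siCtl cells and 81.3 ± 0.539% (SD, n = 3) in siUpf1 cells. The share of Gria2 was 2.33 ± 0.135% and 6.38 ± 0.873%, and that of Grin1 4.21 ± 0.484% and 6.87 ± 0.514%. The share of Grin2d was 3.88 ± 0.35% and 3.58 ± 0.396%, with overlapping libraries. Of the 8 genes outside the 10, Grik3 and Grin3b had reads in every library, at mean levels of 0.178 and 0.314 RPKM in siCtl cells and 0.238 and 0.252 RPKM in siUpf1 cells. Grik3, a partner with which GRIK5 can form channels, had 40.4 ± 5.11 (SD, n = 2) and 53.3 ± 6.27 (SD, n = 3) normalised counts (log2 fold change 0.40, DESeq2 adjusted p = 0.369). Grin3b had 26.2 ± 8.97 and 20.8 ± 7.16 (log2 fold change −0.34, DESeq2 adjusted p = 0.629). DESeq2 tested these 2 and called neither, with 0 at an unadjusted p under 0.05 and 0 by edgeR. Grik1, Grik2, Grik4, Grin2c and Grid1 had at most 3 reads in a library.

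The 4 expressed genes differ from one another in structure as GENCODE annotates it. The representative Gria2 transcript is long and poor in GC, with a 7268-nt 3′ UTR and 36.8% GC, while those of Grin1, Grin2d and Grik5 have 3′ UTRs of 1187, 897 and 520 nt and 59.4%, 65% and 62.3% GC. The 6 genes with 0 to 2 reads in all have 43% to 49.2% GC, between Gria2 and the others. Transcripts annotated as NMD substrates number 1 of 8 for Gria2, 2 of 7 for Grik5 and 1 of 9 for Gria3, and 0 for the 7 other genes, Grin1 among them. The annotation therefore does not sort the called genes from those not called, and the counts per gene do not show which isoform the added reads came from.

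The promoters of Gria2 and Grin1 were searched because the REST repressor, whose genes are described below, binds an element known as RE1 in neuronal genes. RefSeq promoter windows (GRCm38.p6, 250 bases before to 50 after the start) were at hand for 5 of the 10 genes, Gria2, Gria4, Grin1, Grin2d and Grik5. The RE1 core was taken as the half-sites CAGCACC and GGACAG with 2 bases of any kind between them, which makes 13 letters that must match, and both strands were searched. The best match in each of the 2 promoters is printed with 3 flanking bases on each side and with the letters that match the core in capitals.
Gria2, chr3:80802991-80803005: ttttAGCACCgcGGACAGcgc
Grin1, chr2:25319299-25319313: acagAGaACCagGGACAGtca
Both matches are on the strand opposite to the gene, centred 163 bases before the Gria2 start and 119 bases before the Grin1 start. The Gria2 match has 1 mismatch and the Grin1 match has 2. Of all 32851 windows, 0.186% hold a match with at most 1 mismatch and 1.92% one with at most 2. The best matches in the windows of Gria4, Grik5 and Grin2d had 4, 4 and 5 mismatches. A match describes the letters in the window and not binding.

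Genes that act with these receptors were examined in 6 lists of 83 genes, of which 50 were tested. DESeq2 called 19 higher and 7 lower in siUpf1 cells, beside 22.0% and 22.9% of all tested genes, and the median log2 fold change was 0.32 beside −0.00 for all genes. The first list, the other ionotropic subunits, is described above.

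Auxiliary subunits ride with the receptors and set their gating and surface number. Of 17 genes, 8 were tested, with a median log2 fold change of 0.45. DESeq2 called 4 higher and none lower (0 lower at an unadjusted p under 0.05 and 0 by edgeR). Of all tested genes, 22.0% were called higher and 22.9% lower. Cacng3, a TARP that carries AMPA receptors to synapses, had 640 and 667 normalised counts in siCtl cells and 1107, 1062 and 1010 in siUpf1 cells. Its libraries did not overlap (log2 fold change 0.70, SE 0.088, DESeq2 adjusted p = 3.12e-14). Cacng7, another TARP and the most counted gene of the list, rose from 2326 to 3203 normalised counts on average (log2 fold change 0.46, adjusted p = 2.29e-14). Cacng4 had a log2 fold change of 0.62 (adjusted p = 0.00104), which was not called without siCtl replicate 3 (0.44, adjusted p = 0.128). Shisa7 had one of 0.44 (adjusted p = 0.0171), which was not called without siCtl replicate 1 (adjusted p = 0.112), siCtl replicate 3 (0.145), siUpf1 replicate 1 (0.0523) or siUpf1 replicate 2 (0.158). Cacng2, Cnih3, Syndig1, Neto1 and Neto2, the last pair being kainate receptor partners, had no read.

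**Figure D4:**
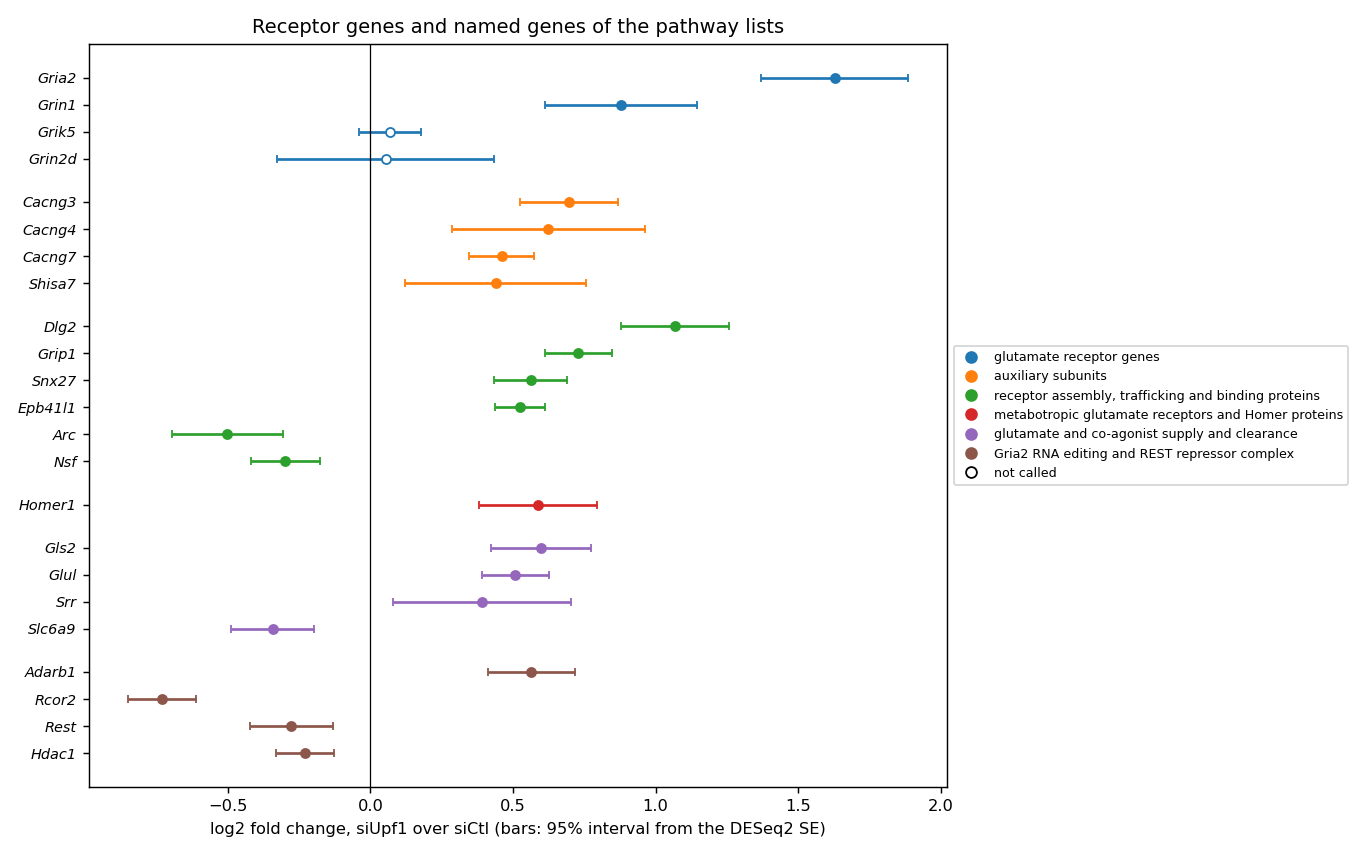
Log2 fold change of siUpf1 over siCtl (horizontal axis) with its 95% interval for the 4 tested receptor genes and the called genes of the pathway lists that were named by the limit of 100 mean normalised counts (Camk2b is below it and not drawn), coloured by list, with open points for genes that DESeq2 did not call. Among the genes drawn, Gria2 lies farthest to the right at 1.63, followed by Dlg2 at 1.07 and Grin1 at 0.88, and Rcor2 farthest to the left at −0.73.

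Proteins that assemble, move and anchor the receptors numbered 23, with 20 tested. DESeq2 called 7 higher and 3 lower, beside 22.0% and 22.9% of all tested genes. The median log2 fold change was 0.24. Dlg2, which encodes the NMDA receptor scaffold PSD-93, had 452 and 491 normalised counts in siCtl cells and 1043, 939 and 979 in siUpf1 cells. It thus passed the siCtl level in each library (log2 fold change 1.07, SE 0.097, DESeq2 adjusted p = 6.72e-27). Dlg4, which encodes the related scaffold PSD-95, had means of 4002 and 4252 and was not called (log2 fold change 0.09, adjusted p = 0.182). Grip1, a scaffold that binds the tail of GRIA2, had 1735 and 1765 normalised counts against 2930, 2796 and 2972 (log2 fold change 0.73, SE 0.06, adjusted p = 7.78e-33). Pick1, whose product binds the same tail and favours internalisation, had means of 526 and 517 (log2 fold change −0.02, adjusted p = 0.892). Snx27, which returns receptors from endosomes to the surface, rose by 0.56 and Epb41l1, a cytoskeletal anchor, by 0.52 on the log2 scale (adjusted p = 1.01e-16 and 8.63e-31).

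Arc, whose product promotes removal of AMPA receptors from synapses, was one of the genes that fell. It had 757 and 718 normalised counts in siCtl cells and 506, 541 and 517 in siUpf1 cells, without overlap (log2 fold change −0.50, SE 0.099, DESeq2 adjusted p = 2.43e-06). Nsf, an ATPase that binds GRIA2 and keeps it at the surface, had a log2 fold change of −0.30 (adjusted p = 6.36e-06). Camk2b, a kinase subunit of the postsynaptic density, was the third gene called lower. It is below the count set for naming genes and was picked after its values were seen, with 135 and 150 normalised counts against 59.6, 57.7 and 70.4 (log2 fold change −1.18, adjusted p = 5.58e-06). Camk2a, its partner subunit, was among the genes called higher (log2 fold change 0.29, adjusted p = 0.00199) and was also picked after its values were seen.

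Metabotropic receptors are G-protein-coupled rather than channels, and Homer proteins tie them to the postsynaptic scaffold. Of these 11 genes 4 were tested, with a median log2 fold change of 0.55. DESeq2 called 2 higher and none lower (0 lower at an unadjusted p under 0.05 and 0 by edgeR). Of all tested genes, 22.0% were called higher and 22.9% lower. Grm3, Grm5 and Grm6 had no read. Homer1 had 578 and 523 normalised counts in siCtl cells and 910, 756 and 808 in siUpf1 cells, without overlap. It rose by 0.59 on the log2 scale, from a mean of 550 to 824 (DESeq2 adjusted p = 1.42e-07), a value that was 0.32 once the dependence on length and GC was taken out.

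Enzymes and transporters that make, load and clear glutamate or the NMDA co-agonists numbered 15, with 8 tested. DESeq2 called 5 higher and 1 lower, beside 22.0% and 22.9% of all tested genes. The median log2 fold change was 0.33. Gls2, a glutaminase that makes glutamate from glutamine, rose by 0.60 (DESeq2 adjusted p = 1.93e-10) and Glul, glutamine synthetase, which runs the opposite reaction, by 0.51 (adjusted p = 2.02e-16). Srr, which makes D-serine, had a log2 fold change of 0.39 (adjusted p = 0.0325). It was not called without any 1 of the 5 libraries (adjusted p = 0.0711 to 0.22). Slc6a9, the glycine transporter GLYT1, was lower by −0.34 (adjusted p = 1.47e-05). The vesicular transporter gene Slc17a6 and the uptake carriers Slc1a2, Slc1a3 and Slc1a6 had no read.

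The last list held 9 genes for editing of Gria2 RNA and for the REST complex, with 8 tested. DESeq2 called 1 higher and 3 lower, beside 22.0% and 22.9% of all tested genes. The median log2 fold change was −0.05. Adarb1, which encodes ADAR2, the enzyme that edits the site in Gria2 RNA that sets calcium permeability, had 973 and 1012 normalised counts in siCtl cells and 1381, 1506 and 1521 in siUpf1 cells. The groups did not overlap (log2 fold change 0.56, SE 0.078, DESeq2 adjusted p = 3.38e-12), whereas Adar was not called (0.03, adjusted p = 0.661). Editing itself cannot be read from counts per gene. Rcor2, a REST corepressor, had 2790 and 2802 normalised counts against 1652, 1748 and 1662 (log2 fold change −0.73, SE 0.06, adjusted p = 4.80e-32). Rest had 1847 and 1696 against 1465, 1367 and 1547 (log2 fold change −0.28, adjusted p = 0.000678). It was not called without siCtl replicate 1 (−0.22, adjusted p = 0.0907). Hdac1 fell by 0.23 on the log2 scale (adjusted p = 3.88e-05), and Rcor1, Sin3a and Hdac2 were not called.

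The genes whose profiles over the 5 libraries lay nearest to those of the 2 called receptors were sought among the 6298 called genes whose mean reached 100 normalised counts. Likeness was the Euclidean distance between log2 normalised counts, each centred on its siCtl mean, so genes of similar fold change are near by construction. For Gria2 these were Cnr1, which encodes the CB1 cannabinoid receptor (distance 0.111, log2 fold change 1.59), Dbh, dopamine beta-hydroxylase (0.183 and 1.62), and Gpm6b, a neuronal membrane proteolipid (0.212 and 1.63). For Grin1 they were Il11ra1, an interleukin-11 receptor chain (0.0721 and 0.85), Brinp2 (0.0987 and 0.88) and Ankle1, an endonuclease (0.113 and 0.87).

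**Figure D5:**
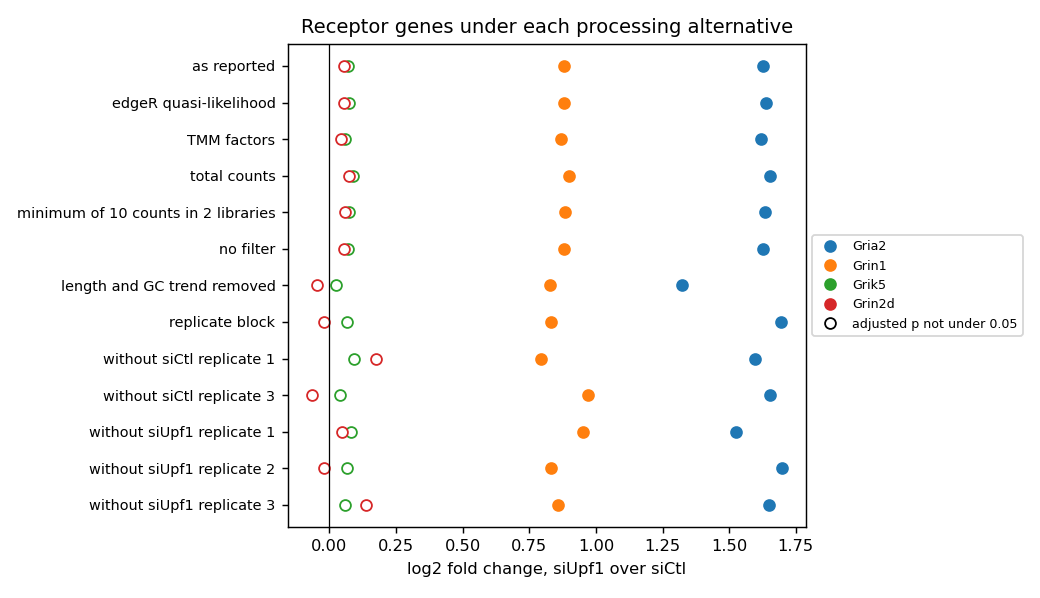
Log2 fold change of siUpf1 over siCtl for Gria2, Grin1, Grin2d and Grik5 under the main DESeq2 test and 12 alternatives, among them edgeR, other scalings and filters, removal of the length and GC trend, and omission of each library. Gria2 stays between 1.32 and 1.70 and Grin1 between 0.79 and 0.97, while Grin2d lies on both sides of 0.

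The fold change of Gria2 was smallest, at 1.32, once the dependence of each library on length and GC was taken out, and that of Grin1 was 0.83 in the same fit. Without any 1 library Gria2 ranged from 1.53 to 1.70 and Grin1 from 0.79 to 0.97, and both were called each time.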

How the data were processed

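Polyadenylated RNA of 5 N2A samples was sequenced by the authors. Per the labels and the study's methods, reads were filtered with fastp, mapped to GRCm38.p6 with STAR 2.7.0f and assigned to exons by strand with featureCounts (Subread 1.6.4). The deposited values are raw read counts per gene, neither normalised nor pooled. All columns were mapped to a sample. Nothing in the labels states that replicates are separate cultures, so p-values measure the spread between these libraries, which may be technical.

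The main test was DESeq2 (1.42.0, R 4.3.3), siUpf1 against siCtl over all genes, with median-of-ratios size factors, independent filtering, the Wald test and Benjamini-Hochberg adjustment. Calls were made at an adjusted p under 0.05. Means ± SD are of normalised counts. Alternatives were edgeR's quasi-likelihood test (4.0.16), TMM and total-count scaling, a minimum of 10 counts in 2 libraries, no filter, removal of the length and GC trend, a replicate block and each library left out. Within-library ratios were compared by two-sided exact permutation. Code was tested on simulated data. Gene models came from GENCODE M21 (99.8% of identifiers matched).

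The 10 genes, the lists and the promoter search were chosen with earlier results of these data known. Genes named are Upf1, the 10 receptor genes, in each list the up to 4 called genes per direction that changed most among those averaging 100 or more normalised counts, and the 3 nearest profiles of Gria2 and Grin1. Exceptions are marked, and some genes of the lists are counted but not reported by name here. List members that were not called or had no read, and markers, were picked after their values were seen.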

Additional observations from a re-analysis of the deposited data

How the results depend on the processing

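The counts of receptor genes called, 2 higher and 0 lower, were the same under the 12 alternatives of the test. The counts over the pathway lists, 19 higher and 7 lower, were 23 and 7 with edgeR. With 1 siUpf1 library left out, DESeq2 called 16 to 17 of those genes higher and 7 to 8 lower. Fits without a siCtl library leave 1 in that group, and their totals are left out. Over all genes edgeR called 4220 higher and 4172 lower of 15368 tested, and DESeq2 3341 and 3481 of 15191. In the fits without 1 siUpf1 library, DESeq2 called 2802 to 2944 genes higher and 2768 to 3115 lower of 13702 to 14417 tested. Of 312 alternative values of 26 genes that the naming rule took, 290 kept their direction and side of the threshold, 18 lost the call and 4 changed sign. The 4 were of Grin2d, which was not called in any fit, at −0.045 with the length and GC trend removed, −0.021 in the replicate block, −0.067 without siCtl replicate 3 and −0.021 without siUpf1 replicate 2. Leaving out 1 library moved Grin2d between −0.067 and 0.18, and the cause was not tested.

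The counts gave no sign that libraries of the same replicate number are paired. Deviations from the group means correlated at −0.0858 for number 1 and −0.0742 for number 3. With 2 siCtl libraries their deviations are mirror images, so these are not separate checks. They cannot settle whether the numbers mark shared experiments. With the number as a replicate block, 1957 genes were called higher and 1962 lower, Gria2 had a log2 fold change of 1.69 and Grin1 of 0.83, and both were called. The pathway lists then had 13 genes called higher and 5 lower, and Cacng4, Shisa7, Srr, Rest and Hdac1 were not called. The number of auxiliary genes called higher was 2 in the block and without siCtl replicate 3, and that of the supply and clearance genes was 3 in the block, without siCtl replicate 1 or 3, and without siUpf1 replicate 2.

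The log2 ratio of Grin1 to Grin2 subunits differed between groups by 0.62 to 1.04 with 1 library left out. With 2 siCtl libraries, 143 to 859 reads per library for Gria2, Grin1 and Grin2d, and 0 to 2 reads in all for 6 receptor genes, small changes of Grin2d, and changes of those 6 genes that stay under 3 reads in a library, were not detectable at this depth.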

Other observations

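Genes that edgeR called and DESeq2 did not add 4 names to the pathway lists, all higher in siUpf1 cells and picked after their values were seen. Gsg1l, an AMPA receptor auxiliary subunit, had 24.2 ± 3.11 (SD, n = 2) normalised counts in siCtl cells and 44.6 ± 6.10 (SD, n = 3) in siUpf1 cells, and Cacng8, a TARP, had 132 ± 0.0018 and 163 ± 15.7. Akap5, which anchors kinases and phosphatases beside the receptors, had 58.8 ± 8.97 and 89.1 ± 2.25, and Dlg3, the scaffold SAP102, had 170.3 ± 14.1 and 213 ± 6.69. The siUpf1 libraries were wholly above the siCtl ones in these 4 genes, as they were in 34.3% of all genes that DESeq2 tested. Over all genes edgeR called 4220 of 15368 tested higher. Adjusted p-values of the 4 genes were 0.00653, 0.0439, 0.00682 and 0.0147 by edgeR and 0.0582, 0.201, 0.0593 and 0.105 by DESeq2, in the same order.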
